A study of Mus musculus with 4 samples.

Results

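The 37 genes described here are transcribed by intraepithelial lymphocytes, the T cells that lie between the epithelial cells of the gut. Some of them, such as Ptprc, are transcribed by other cells as well. The genes were read in RNA from intestinal crypt preparations of WT mice and of mice with CREPT deleted in the intestinal epithelium. They were taken as a named list of T cell genes, with no measured value in the rule, from a table of 53845 genes. The list was nevertheless chosen with earlier results of these data known. All 37 passed the filter on low counts and were among the 17504 genes tested.

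No member passed the adjusted p threshold of 0.05 in the comparison of Vil-CREPTKO with WT crypts. The summed level of the list was 1444 and 1073 CPM (counts scaled to a common library size by TMM) in the 2 WT libraries, against 1086 and 882 CPM in the 2 Vil-CREPTKO libraries. The WT libraries averaged 1258 ± 262 CPM and the Vil-CREPTKO libraries 984 ± 144 CPM (SD, n = 2 libraries each). The groups overlapped, because Vil-CREPTKO replicate 1 lay above WT replicate 2. The distance between the 2 WT libraries was larger than the distance between the group means.

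Intraepithelial lymphocytes of the small intestine are mostly CD8-bearing T cells, and in mice many of them carry a gamma-delta receptor or a CD8 alpha homodimer. They hold ready-made cytotoxic granules, enter the epithelium through the chemokine receptor CCR9, and are held there by the integrin CD103 (alpha E beta 7), which binds E-cadherin. Epithelial cells keep them by IL-15 and, for the gamma-delta cells that carry the V gamma 7 chain, by butyrophilin-like surface proteins. An EDTA release of crypts does not separate such lymphocytes from the epithelium, so their RNA can be read in a crypt library.

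The mice were of the C57BL/6 strain. The Vil-CREPTKO group had CREPT (Rprd1b, a regulator of transcription by RNA polymerase II) deleted from floxed alleles by Cre under the villin promoter, which is active in intestinal epithelial cells and not aimed at lymphocytes. The WT group is labelled as wild type. The study bred Vil-CREPTKO mice from floxed parents of which 1 carried Villin-cre, so offspring without Cre have floxed alleles, but the labels do not say whether these WT animals were such offspring. Crypts were released by EDTA, and the study's crypt protocol holds back villi with a strainer. Neither age nor sex is labelled for these animals. The study used young adult mice of both sexes, and no irradiation is named for these libraries. Each group had 2 libraries, which the study calls biological replicates.

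Total counts ranged from 47241049 to 49369315 per library, so a count of 3 stood for 0.0588 to 0.0690 CPM. The targeted gene, Rprd1b, had 3087 and 3030 counts in WT against 1142 and 1424 in Vil-CREPTKO, which gave a log2 fold change of -1.14 ± 0.12 (SE) and, with the quasi-likelihood test of edgeR, an adjusted p of 0.0041. WT replicate 2 stood apart in sex: it had 863 CPM of Xist and no count of Y-linked genes. The other 3 libraries had at most 0.529 CPM of Xist and 148 to 164 CPM from the Y chromosome. The WT group therefore held 1 female and 1 male profile and the Vil-CREPTKO group 2 male profiles. The share of mitochondrial counts was 6.93% and 6.75% in WT, against 10.2% and 7.62% in Vil-CREPTKO.

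The defining T cell markers are themselves members of the list, so reading them is no separate check of its name. Cd3e, Cd3g, Cd3d and Trac were read in every library, with 257 counts or more each, and Cd2 was read at 10 to 39 counts. Markers of other lymphocytes were at or near the floor. Cd28, the costimulatory receptor of conventional T cells, had 0 counts in all 4 libraries, which allows up to 0.0588 to 0.0690 CPM for counting error only. Foxp3, the factor of regulatory T cells, had 3 to 9 counts, Ccr7 of recirculating T cells 0 to 5 counts, and the natural killer cell genes Ncr1 and Eomes 0 to 6 and 1 to 6 counts.

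To ask whether the list differed between the groups, the members were read from a fit across all genes. Calls needed an adjusted p below 0.05 and more than a 2-fold difference. No member was called lower, where 1.34% of all tested genes were, and none was called higher, where 0.297% were. By the adjusted p alone, 0 members were lower and 0 higher, beside 2.29% and 0.423% of all tested genes. At an unadjusted p below 0.05, 4 members were lower (Cd8a, Gzma, Lck and Runx3) and 1 was higher (Cd2). Over all tested genes, 1709 were lower at that threshold (9.76%) and 786 higher.

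Nearly all fold changes shared a sign. The log2 fold change of Vil-CREPTKO over WT was negative for 34 of the 37 members and positive for Cd2, Cd4 and Klre1, with a median of -0.29 and a range of -0.57 (Lck) to 1.85 (Cd2). Over all tested genes the median was -0.0060 and 50.9% were negative. The members share the cells they come from and the same libraries, so their signs are not separate observations. In bulk RNA, fewer lymphocytes and less RNA per lymphocyte cannot be told apart.

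The order of the libraries was shared as well. WT replicate 1 was the highest library for 31 members, against 25.7% of all tested genes, and exceeded WT replicate 2 for 36 members. The median log2 difference between the 2 WT libraries was 0.60 over the members and 0.0018 over all tested genes. Vil-CREPTKO replicate 1 exceeded replicate 2 for 34 members, with a median log2 difference of 0.39. For 30 members the 2 WT libraries differed by more than the fitted group difference.

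Both groups were separated without overlap for 8 members. Cd8a, Tcrg-C1, Gzma, Gzmb, Fasl, Fyn and Runx3 were lower in both Vil-CREPTKO libraries than in both WT libraries, 7 of 37 where 24.2% of all tested genes showed this, and Cd2 was higher, where 21.0% of all tested genes did. The lower side thus held no larger share of the members than of all tested genes.

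**Figure D1:**
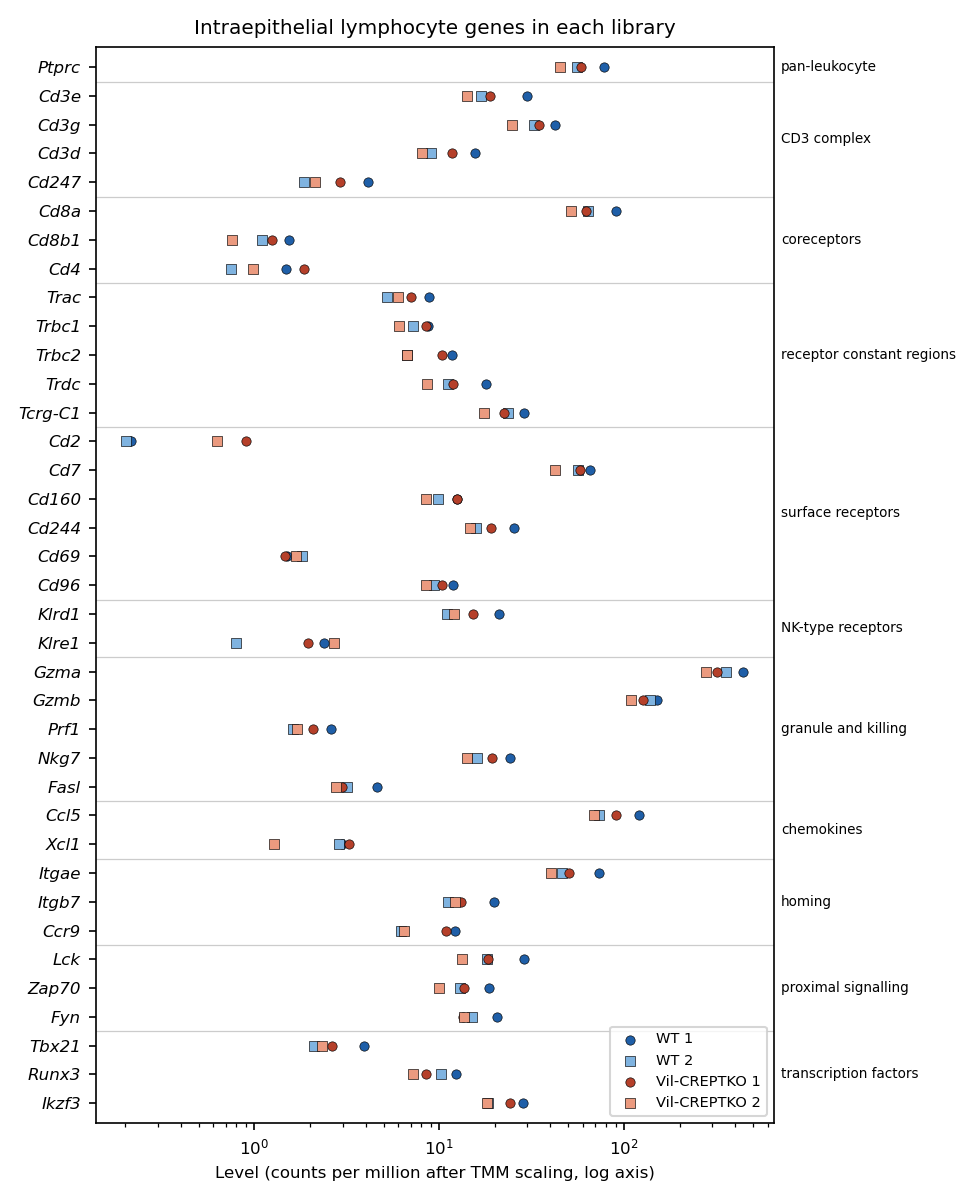
Level of each of the 37 members in CPM (TMM scaled, log axis) in the 4 libraries, grouped by role; circles are replicate 1 and squares replicate 2 of WT (blue) and Vil-CREPTKO (red). WT replicate 1 is the rightmost point for 31 members, and the squares of WT lie among the Vil-CREPTKO points for most.

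Ptprc, the phosphatase CD45 carried by all leukocytes, had 77.8 and 55.9 CPM in WT and 58.2 and 45.3 CPM in Vil-CREPTKO. WT replicate 1 was highest, Vil-CREPTKO replicate 2 was lowest, and the other 2 libraries lay close together between them. The comparison gave -0.37 ± 0.18 (SE) on the log2 scale and an adjusted p of 0.416.

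The CD3 complex couples the T cell receptor to the cell interior. Cd3g was its most abundant gene, with 42.4 and 32.5 CPM in WT and 34.9 and 24.8 CPM in Vil-CREPTKO, which gave a log2 fold change of -0.33 ± 0.19 (SE) and an adjusted p of 0.509. The groups overlapped, with Vil-CREPTKO replicate 1 above WT replicate 2. Cd3e, at 29.8 and 16.8 CPM in WT and 18.8 and 14.1 CPM in Vil-CREPTKO, was read in the same order of libraries as Cd3d. For both of these and for Cd247 (the zeta chain), WT replicate 1 was highest and Vil-CREPTKO replicate 1 next. The 4 adjusted p-values were 0.440 to 0.851. Per length, the mean WT levels ran from 0.561 (Cd247) to 11.5 (Cd3g) RPKM (CPM divided by exon length in kilobases).

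Of the coreceptors, Cd8a was read far above the others. It had 91.0 and 64.2 CPM in WT and 62.2 and 51.7 CPM in Vil-CREPTKO, so the groups did not overlap, though Vil-CREPTKO replicate 1 lay just below WT replicate 2. The comparison gave -0.45 ± 0.18 (SE) on the log2 scale and an adjusted p of 0.285. Cd8b1, the beta chain found on conventional CD8 T cells, had 79, 54, 54 and 37 counts in the same library order, and Cd4, the coreceptor of helper cells, had 76, 37, 81 and 48 counts. Per length, mean WT levels were 21.3 RPKM for Cd8a, 0.892 for Cd8b1 and 0.278 for Cd4. The ratio of Cd8b1 to Cd8a per length was 0.0417 and 0.0419 in WT, against 0.0490 and 0.0357 in Vil-CREPTKO, with the Vil-CREPTKO libraries on either side of the WT pair.

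The receptor constant regions belong to the alpha, beta, gamma and delta chains of the T cell receptor. Their levels in bulk RNA do not settle which receptor the cells carry. Tcrg-C1, a constant region of the gamma chain, was the most abundant. It had 28.7 and 23.4 CPM in WT and 22.4 and 17.4 CPM in Vil-CREPTKO, without overlap. On the log2 scale its difference came to -0.39 ± 0.18 (SE), adjusted p 0.366. The gamma constant regions Tcrg-C2 and Tcrg-C4, which are not members, did overlap between groups. Tcrg-C2 had 22.2 and 15.5 CPM in WT and 16.4 and 14.3 CPM in Vil-CREPTKO. Tcrg-C4 had 12.4 and 8.70 CPM in WT and 11.6 and 5.93 CPM in Vil-CREPTKO. Trdc, the delta constant region, had 17.9 and 11.2 CPM in WT and 11.9 and 8.61 CPM in Vil-CREPTKO and gave a log2 fold change of -0.51 ± 0.25 (SE), adjusted p 0.420. Trac, the alpha constant region, had 8.83, 5.22, 7.02 and 5.97 CPM in the same order and a log2 fold change of -0.12. Trbc1 and Trbc2, the beta constant regions, gave -0.13 and -0.11. They are near-identical copies, as are some of the gamma constant regions, so the split of reads between such copies is uncertain. Whether the separation of the groups for Tcrg-C1 depends on that split was not tested.

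The ratio of Trdc to Trac counts was 2.03 and 2.15 in WT, against 1.69 and 1.44 in Vil-CREPTKO. Both Vil-CREPTKO libraries were below both WT libraries. The means were 2.09 ± 0.09 and 1.57 ± 0.18 (SD, n = 2), and the exact two-sided permutation test gave p = 0.333, the smallest that 2 against 2 libraries allow, so the test cannot pass 0.05. Per length the ratio was 0.490 and 0.520 in WT, against 0.409 and 0.349 in Vil-CREPTKO.

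Among the surface receptors, Cd7, an immunoglobulin-like receptor of T cells, was the most abundant, with 65.5 and 56.0 CPM in WT and 57.9 and 42.5 CPM in Vil-CREPTKO. Its log2 fold change was -0.28 ± 0.16 (SE), adjusted p 0.519, and its groups overlapped. Cd160 and Cd244 (2B4), which tune killing, Cd96, a receptor for nectin-family ligands, and Cd69, a marker of activation and residence, had log2 fold changes of -0.29 to -0.067 with adjusted p-values of 0.658 and above. Cd69 was the member for which WT replicate 2 was the highest library.

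Cd2, an adhesion receptor of T cells at chr3:101275899-101287939 on the minus strand of GRCm38, was higher in Vil-CREPTKO. It had 11 and 10 counts in WT against 39 and 31 in Vil-CREPTKO, or 0.215 and 0.203 against 0.897 and 0.631 CPM. The groups did not overlap and each pair lay close together. The log2 fold change was 1.85 ± 0.58 (SE), the largest of the list, with an adjusted p of 0.165. It passed the threshold with edgeR's likelihood ratio test, which gave an adjusted p of 0.0405.

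The NK-type receptors of the list are lectin-like receptors first known from natural killer cells. Klrd1 (CD94) had 21.0 and 11.0 CPM in WT and 15.2 and 12.0 CPM in Vil-CREPTKO, with a log2 fold change of -0.24 ± 0.28 (SE) and an adjusted p of 0.776. Both Vil-CREPTKO values lay between the WT values. Klre1 had 121 and 39 counts in WT and 85 and 132 in Vil-CREPTKO, an overlap as well.

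The granule genes had the highest summed level of any role, at 623 and 515 CPM in WT and 467 and 405 CPM in Vil-CREPTKO. Gzma (granzyme A, a serine protease delivered into target cells) had 442 and 355 CPM in WT and 317 and 277 CPM in Vil-CREPTKO. Both Vil-CREPTKO libraries lay below both WT libraries, with a log2 fold change of -0.42 ± 0.17 (SE) and an adjusted p of 0.311. Gzmb (granzyme B) had 150 and 139 CPM in WT and 126 and 109 CPM in Vil-CREPTKO, adjusted p 0.371. Per length, the mean WT level of Gzma was 396 RPKM, the highest of all members, and that of Prf1, the pore-forming perforin, was 0.819 RPKM. Prf1, Nkg7 (a protein of granule membranes) and Fasl (a death ligand) had log2 fold changes of -0.16, -0.26 and -0.45, with adjusted p-values of 0.551 to 0.899. Without Gzma and Gzmb the summed level was 852 and 579 CPM in WT and 644 and 495 CPM in Vil-CREPTKO.

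The promoters of the 2 granzyme genes are shown because these genes lead the list in level and because Runx3, a factor of the RUNX family, is itself a member. The windows are the 250 bases before the RefSeq start, on GRCm38.p6, at chr13:113100982-113101231 for Gzma and chr14:56262335-56262584 for Gzmb, both on the minus strand and printed 5′ to 3′. Capitals mark the letters TGTGGT of the RUNX motif on either strand.
Gzma: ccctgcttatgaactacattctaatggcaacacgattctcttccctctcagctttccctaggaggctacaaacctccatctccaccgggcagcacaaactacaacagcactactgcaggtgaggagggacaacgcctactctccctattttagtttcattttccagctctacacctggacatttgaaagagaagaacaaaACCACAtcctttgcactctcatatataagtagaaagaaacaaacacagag
Gzmb: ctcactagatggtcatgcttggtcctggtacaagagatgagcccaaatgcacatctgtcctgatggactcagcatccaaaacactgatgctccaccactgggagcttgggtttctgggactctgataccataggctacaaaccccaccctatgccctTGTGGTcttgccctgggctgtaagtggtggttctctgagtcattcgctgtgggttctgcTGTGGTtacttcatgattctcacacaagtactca
Gzma held 1 match, 50 bases before its start, and Gzmb held 2. RefSeq windows were at hand for 23 of the 37 members. TGTGGT was in a window of 11 of these 23 and of 15.9% of the 27025 genes with a window, AGGAAG of the ETS family in 15 of 23 and 32.3%, TCACAC of the T-box family in 7 of 23 and 13.9%, AGATAA of the GATA family in 2 of 23 and 11.4%, and TTTATG of the CDX family in 1 of 23 and 12.4%. Some genes have several windows, and a match of letters is not a bound site.

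Of the chemokines, Ccl5, which attracts T cells, had 120 and 73.4 CPM in WT and 90.0 and 68.7 CPM in Vil-CREPTKO, which gave a log2 fold change of -0.28 ± 0.22 (SE) and an adjusted p of 0.648. Xcl1, a ligand for dendritic cells, had 152 and 142 counts in WT and 141 and 63 in Vil-CREPTKO. Its lower mean came from Vil-CREPTKO replicate 2, since replicate 1 was the highest of the 4 libraries in CPM.

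The homing genes place the cells in the epithelium. Itgae, the alpha E chain of CD103, had 73.4 and 46.4 CPM in WT and 50.4 and 40.0 CPM in Vil-CREPTKO, with a log2 fold change of -0.41 ± 0.21 (SE) and an adjusted p of 0.441. Itgb7, its beta chain, had 19.7, 11.2, 13.1 and 12.1 CPM and Ccr9, the receptor for Ccl25, 12.2, 6.20, 10.9 and 6.46 CPM in the same library order. WT replicate 1 was the highest library for all 3 genes, and WT replicate 2 the lowest for Itgb7 and Ccr9.

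The 3 kinases next to the receptor all had negative fold changes. Lck, which starts the signal, had 28.9 and 18.1 CPM in WT and 18.4 and 13.3 CPM in Vil-CREPTKO, the lowest fold change of the list at -0.57 ± 0.24 on the log2 scale (SE), with an adjusted p of 0.331. Vil-CREPTKO replicate 1 lay just above WT replicate 2. Zap70, which carries the signal on, and Fyn, a relative of Lck, gave log2 fold changes of -0.42 and -0.39, adjusted p 0.458 and 0.396.

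Of the transcription factors, Ikzf3 (Aiolos) was the most abundant in CPM, at 28.5 and 18.4 in WT, against 24.1 and 18.1 in Vil-CREPTKO, which gave a log2 fold change of -0.15 ± 0.23 (SE) with an adjusted p of 0.831. Runx3, a factor of CD8 T cell identity, had 12.3 and 10.2 CPM in WT and 8.51 and 7.23 CPM in Vil-CREPTKO, without overlap. Its log2 fold change was -0.52 ± 0.19 (SE), and its adjusted p of 0.250 was the lowest of the members with a negative fold change. Tbx21 (T-bet) had 199, 104, 115 and 114 counts, adjusted p 0.797.

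The values of the comparison depended on which WT library was used. Without WT replicate 2, which leaves 3 male libraries, the median log2 fold change of the members was -0.57, 35 of the 37 were negative, and 2 members fell with an adjusted p below 0.05: Cd3e by 0.86 on the log2 scale (adjusted p 0.0423) and Lck by 0.87 (adjusted p 0.0461). In that fit, 1.79% of all tested genes were lower by the adjusted p. Without WT replicate 1, the median was 0.0027, 18 members were negative and 19 positive, and none had an adjusted p below 0.05. The lone WT library is assumed in these fits to vary like the Vil-CREPTKO pair. The Vil-CREPTKO mean lay below WT replicate 1 for 35 members and below WT replicate 2 for 18. The part of sex in this difference was not tested, since only 1 library was female.

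**Figure D2:**
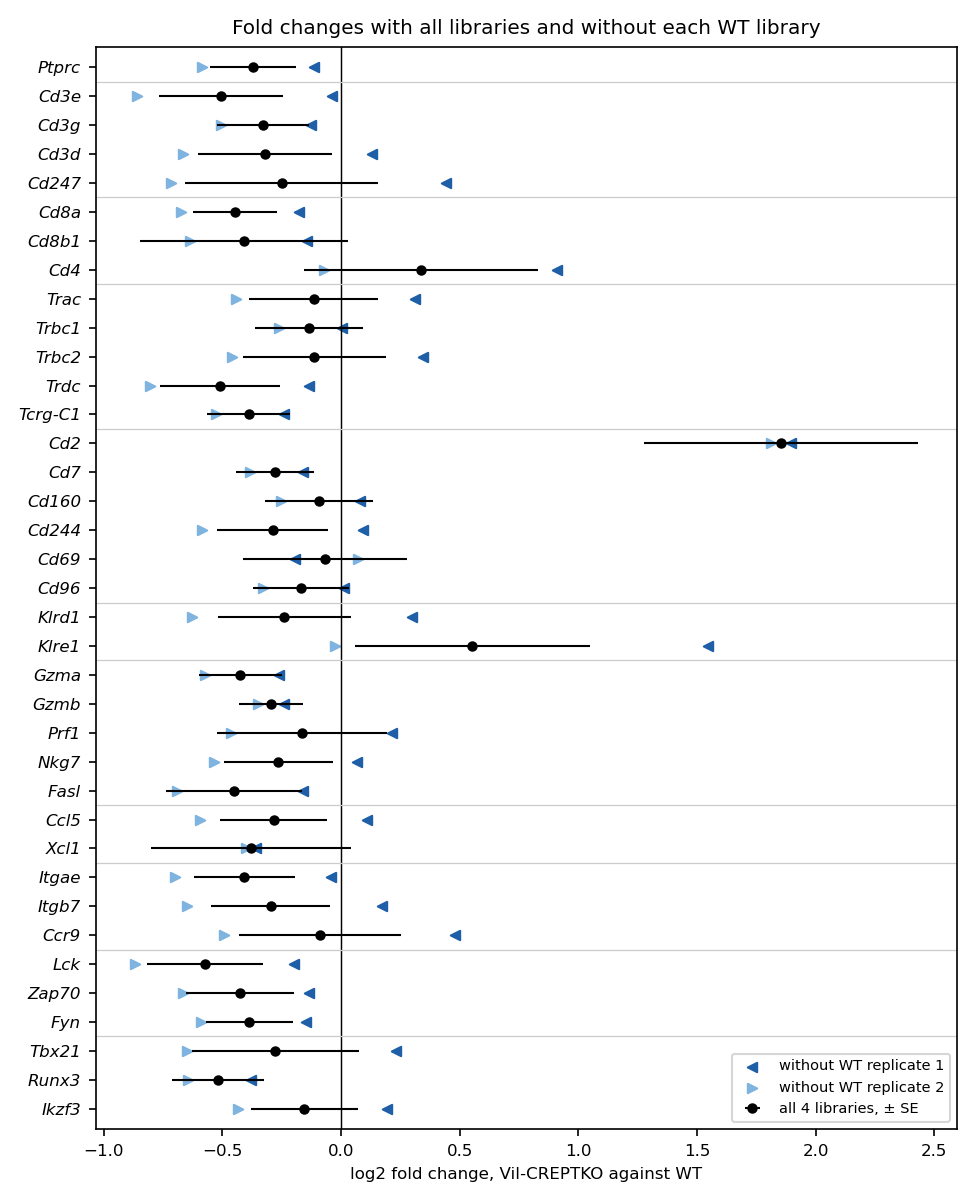
Log2 fold change of Vil-CREPTKO against WT for each member: black points with SE bars use all 4 libraries, dark triangles leave out WT replicate 1 and light triangles leave out WT replicate 2. The light triangles (median -0.57) lie left of the black points and the dark ones (median 0.0027) right of them, except for Cd69.

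To ask whether the T cell genes differed among themselves once the amount of T cell RNA was set aside, each member was divided by the summed counts of the CD3 complex in its library. Ptprc was then 84.5% and 92.9% of the CD3 sum in WT and 85.3% and 92.2% in Vil-CREPTKO. Cd8a (91.1% to 107% over the 4 libraries) and Itgae (73.8% to 81.5%) also overlapped between groups. Cd3e, Cd3g, Cd3d and Cd247 make up the divisor and were left out of the count. Of the other 33 members, 18 overlapped, 12 were higher in both Vil-CREPTKO libraries and 3 were lower, where 24.9% of all tested genes were higher and 5.70% lower on the same measure. The median log2 ratio was 0.11 over these members and 0.35 over all tested genes. These counts are a description and have no test.

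Trdc, Lck and Zap70 were the 3 lower genes, with Trdc at 19.5% and 18.6% of the CD3 sum in WT and 17.4% and 17.5% in Vil-CREPTKO. The 12 higher genes were Cd4, Trac, Trbc1, Trbc2, Cd2, Cd160, Cd244, Klre1, Prf1, Nkg7, Ccl5 and Ikzf3. Trac was 9.60% and 8.67% of the CD3 sum in WT and 10.3% and 12.1% in Vil-CREPTKO. Granule gene counts were 6.77 and 8.55 times the CD3 sum in WT and 6.84 and 8.25 times in Vil-CREPTKO, so that the pairs overlapped.

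**Figure D3:**
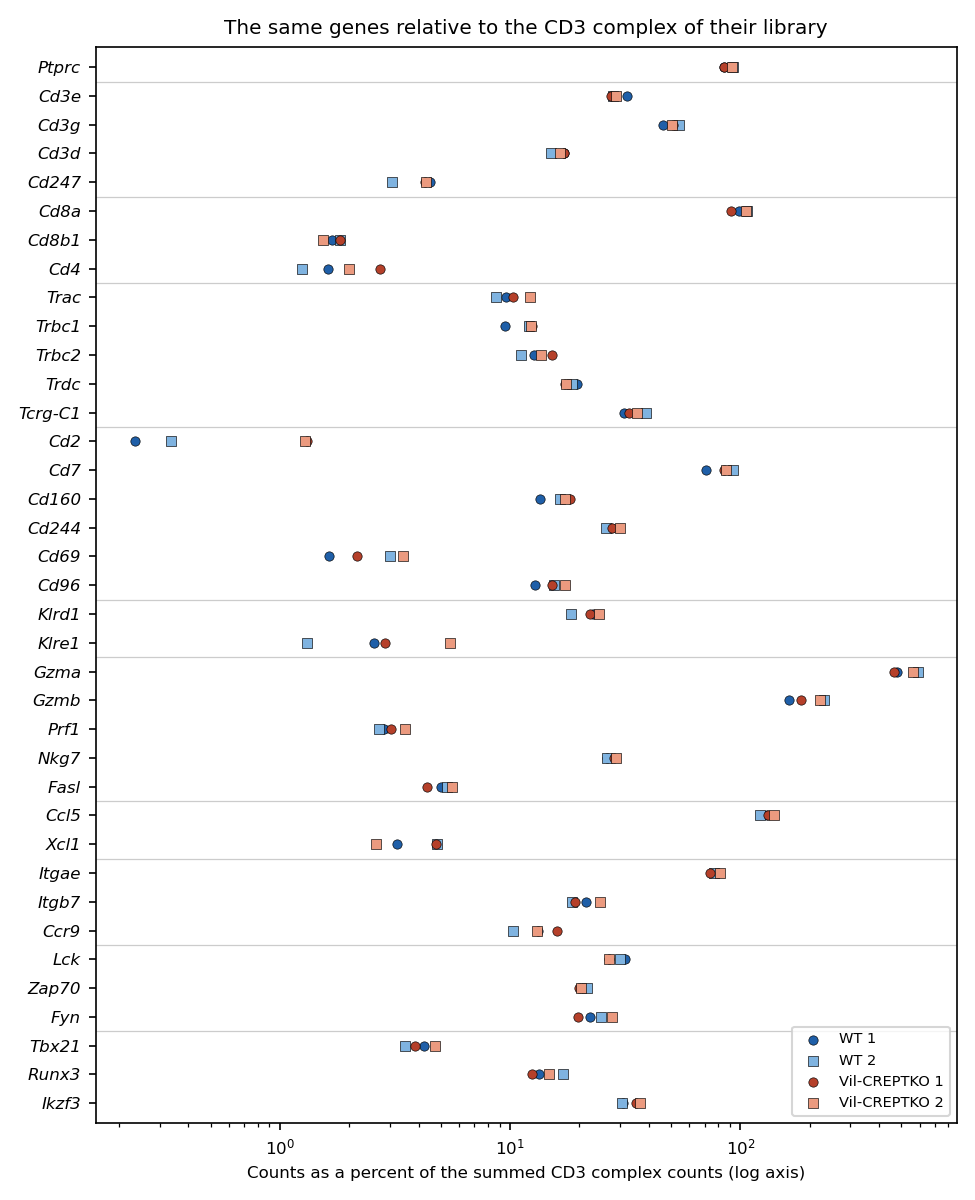
Counts of each member as a percent of the summed counts of Cd3e, Cd3g, Cd3d and Cd247 in the same library (log axis). The 4 libraries lie closer together than on the CPM scale for genes such as Ptprc (84.5% to 92.9%), while Cd2 stays apart.

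The variable segments are the parts of the receptor chains that differ between cells, and were looked at after the members' values were seen. The 7 gamma segments had 1361 and 1002 counts in WT against 1185 and 924 in Vil-CREPTKO. Tcrg-V7, the segment typical of gut intraepithelial cells, made up 55.5% (95% Clopper-Pearson interval 52.9% to 58.2%) and 55.3% (52.1% to 58.4%) in WT and 57.4% (54.5% to 60.2%) and 51.5% (48.2% to 54.8%) in Vil-CREPTKO. Its log2 fold change was -0.042 ± 0.25 (SE), adjusted p 0.965. Trgv2 followed with 29.3% and 31.4% in WT, against 30.6% and 30.7% in Vil-CREPTKO. Intervals cover counting error only.

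**Figure D4:**
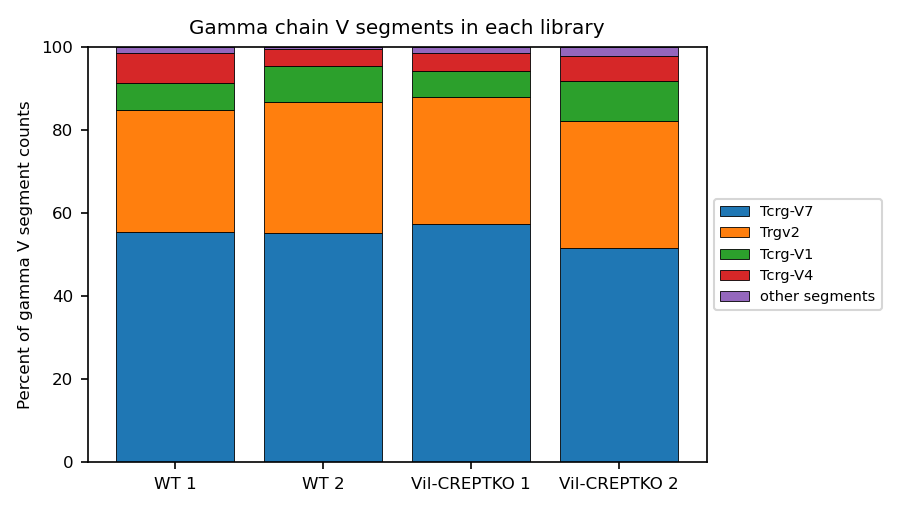
Share of each gamma chain V segment in the counts over the 7 gamma segments, as a stacked bar to 100% for each library. Tcrg-V7 takes 51.5% to 57.4% and Trgv2 29.3% to 31.4% in all 4 libraries.

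Of 17 variable segments in the fit, 1 was called, where 0.297% of all tested genes were called higher and 1.34% lower. The called segment was Trav15n-2 of the alpha locus on chromosome 14, named here after its values were seen. It had 6 and 1 counts in WT and 59 and 53 in Vil-CREPTKO, which gave a log2 fold change of 4.08 ± 0.73 (SE) with an adjusted p of 0.0251. Its transcript of 398 bases is identical to that of Trav15d-2-dv6d-2, and 98.4% identical over the aligned stretch to Trav15-2-dv6-2, which had 33, 14, 34 and 19 counts. Reads of these copies cannot be told apart with certainty. The call was lost without Vil-CREPTKO replicate 1 (adjusted p 0.0576). The other alpha segments together had 62 and 40 counts in WT and 48 and 42 in Vil-CREPTKO.

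A wider list of 59 genes of T cells and intraepithelial lymphocytes, none of them a member, was read in the same fit. Of its 52 tested genes, 42 had a negative and 10 a positive log2 fold change, with a median of -0.22 (0.070 without WT replicate 1), and 0 had an adjusted p below 0.05. At an unadjusted p below 0.05, 3 were lower and 1 was higher, where 1709 (9.76%) and 786 of all tested genes were. By the adjusted p, 2.29% of all tested genes were lower and 0.423% higher. The wider list summed to 620 and 480 CPM in WT and 510 and 420 CPM in Vil-CREPTKO, in the library order of the members.

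Gpr55, a lysophospholipid receptor that slows the movement of intraepithelial lymphocytes, came nearest to the threshold. It had 39.3 and 33.1 CPM in WT and 23.1 and 24.4 CPM in Vil-CREPTKO, with a log2 fold change of -0.61 ± 0.14 (SE) and an adjusted p of 0.0646. Its groups did not overlap, and its adjusted p was 0.0231 by DESeq2 and 0.0195 by the likelihood ratio test. Il2rb, the shared beta chain of the IL-2 and IL-15 receptors, had 37.4 and 37.1 CPM in WT and 28.1 and 29.0 CPM in Vil-CREPTKO, and Lag3, an inhibitory receptor, had 9.64, 9.35, 6.93 and 5.78 CPM in the same order, adjusted p 0.171 and 0.195. The WT libraries were close to each other for Gpr55, Il2rb and Lag3, unlike for most members. Klrc2, a lectin-like receptor with a near-identical relative, had 1 and 5 counts in WT and 12 and 24 in Vil-CREPTKO, adjusted p 0.212.

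The epithelial genes that attract, hold or instruct these lymphocytes were read beside them, as a list of 29 genes of which 26 were tested. Of these, 2 fell with an adjusted p below 0.05 and 0 rose, with 19 negative fold changes and a median of -0.15. Over all tested genes, 2.29% were lower and 0.423% higher by the adjusted p, and 1.34% were called lower. Of all tested genes 50.9% were negative, with a median of -0.0060. The 2 partners that fell were both butyrophilin-like genes. Btnl2, a regulator of T cell activation, had 106 and 127 CPM in WT and 49.3 and 37.7 CPM in Vil-CREPTKO, and its log2 fold change of -1.42 ± 0.16 (SE) with an adjusted p of 0.0046 made it the single called gene of the list. Btnl1, the partner of Btnl6 and Btnl4 on the epithelial surface, had 158 and 207 CPM in WT and 108 and 91.4 CPM in Vil-CREPTKO, which gave a log2 fold change of -0.87 ± 0.17 (SE) with an adjusted p of 0.0335. Neither gene had overlapping groups. Btnl1 no longer passed the threshold without WT replicate 2 (adjusted p 0.0990) and without Vil-CREPTKO replicate 2 (adjusted p 0.0629), and Btnl2 passed it in all 4 fits that left out 1 library.

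The other members of the family did not pass the test. Btnl6, which pairs with Btnl1 to select cells with the V gamma 7 chain, had 220 and 283 CPM in WT and 249 and 189 CPM in Vil-CREPTKO, with overlap, a log2 fold change of -0.20 ± 0.19 (SE) and an adjusted p of 0.710. Btnl4 had 96.9, 97.8, 89.3 and 76.7 CPM in the same order, adjusted p 0.467. The segment that Btnl1 and Btnl6 select, Tcrg-V7, had the shares given above, between 51.5% and 57.4% of the gamma segments.

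The promoters of Btnl1 and Btnl2, which passed the test, are shown beside that of Btnl6, which did not. The windows are again the 250 bases before the RefSeq start on GRCm38.p6, at chr17:34376882-34377131 (plus strand) for Btnl1, chr17:34354572-34354821 (plus strand) for Btnl2 and chr17:34517353-34517602 (minus strand) for Btnl6. Capitals mark the letters CAAAGTCC, a form of the motif of HNF4, a nuclear receptor of enterocytes.
Btnl1: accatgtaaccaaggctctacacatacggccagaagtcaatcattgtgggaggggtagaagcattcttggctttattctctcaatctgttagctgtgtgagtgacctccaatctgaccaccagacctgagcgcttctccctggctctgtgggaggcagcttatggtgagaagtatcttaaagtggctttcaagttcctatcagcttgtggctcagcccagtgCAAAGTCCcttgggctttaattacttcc
Btnl2: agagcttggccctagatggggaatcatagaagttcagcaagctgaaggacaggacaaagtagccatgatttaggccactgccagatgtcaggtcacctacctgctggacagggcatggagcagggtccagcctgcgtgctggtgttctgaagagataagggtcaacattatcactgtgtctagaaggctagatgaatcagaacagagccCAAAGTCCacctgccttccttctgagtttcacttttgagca
Btnl6: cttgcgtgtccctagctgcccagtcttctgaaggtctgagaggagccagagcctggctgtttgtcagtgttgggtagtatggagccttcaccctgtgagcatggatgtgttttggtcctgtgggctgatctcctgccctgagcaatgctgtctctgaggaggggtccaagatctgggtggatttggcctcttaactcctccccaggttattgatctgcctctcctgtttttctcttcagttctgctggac
Btnl1 held the letters 28 bases and Btnl2 41 bases before the start, and the windows of Btnl4 and Btnl6 did not hold them on either strand. They were in a window of 1.38% of the 27025 genes and of 3 of the 23 members. The motif was picked after the values of these genes were seen. Of the 6 motifs looked for, TCACAC was also in the Btnl1 window, and AGGAAG and AGATAA in the Btnl2 window. The windows of Btnl4 and Btnl6 held none of the 6. Whether any of these letters bears on the levels was not tested. Hnf4a had 817 and 918 CPM in WT and 762 and 856 CPM in Vil-CREPTKO, adjusted p 0.873. Its relative Hnf4g had 358 and 347 CPM in WT and 473 and 408 CPM in Vil-CREPTKO, without overlap, at 0.32 ± 0.16 on the log2 scale (SE) and an adjusted p of 0.424.

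Among the other partners, Ccl25, the ligand of Ccr9, had 367 and 454 CPM in WT and 354 and 310 CPM in Vil-CREPTKO, adjusted p 0.498. Cdh1, which encodes the E-cadherin bound by CD103, had 737, 842, 670 and 798 CPM in the same order, and Il15 16.4, 20.5, 23.0 and 17.6 CPM, adjusted p 0.870 and 0.811. Cxcl16, a membrane-bound chemokine for CXCR6, had 10.01 and 8.39 CPM in WT and 6.70 and 5.21 CPM in Vil-CREPTKO, which gave a log2 fold change of -0.63 ± 0.21 (SE) with an adjusted p of 0.205.

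**Figure D5:**
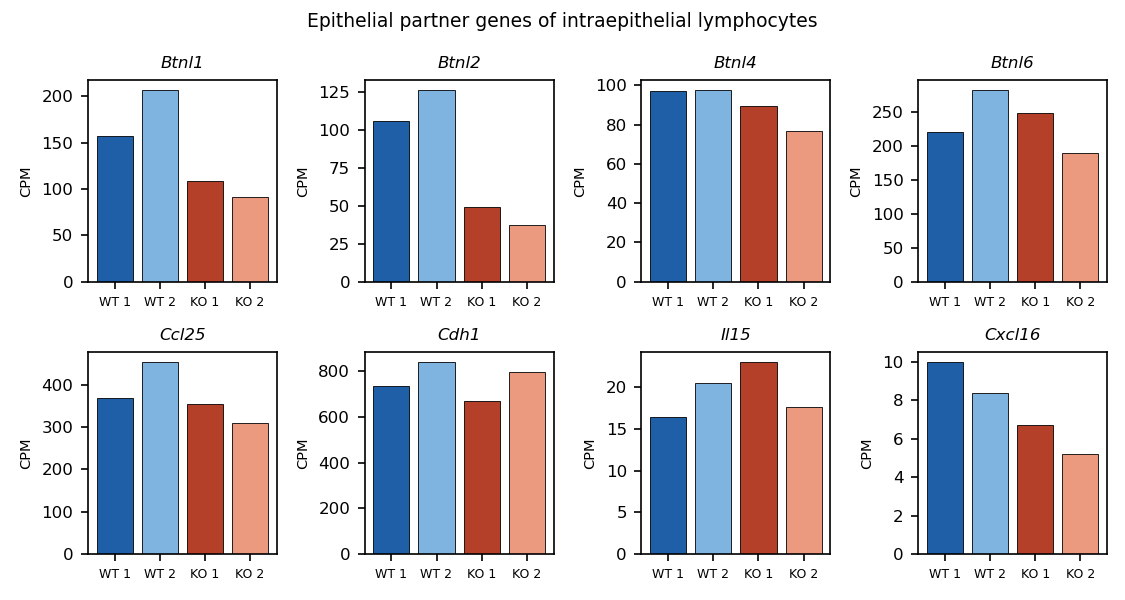
Level in CPM of 8 epithelial partner genes, one bar for each library on axes from 0 (KO stands for Vil-CREPTKO). Btnl1 and Btnl2 are lower in both Vil-CREPTKO libraries than in both WT libraries, while Btnl6, Cdh1 and Il15 overlap.

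Markers of other cells in the preparations were read beside the members. No gene of these lists had an adjusted p below 0.05, where 2.29% of all tested genes were lower and 0.423% higher. The 6 epithelial markers summed to 7171 to 8046 CPM in all libraries, far above the 49.1 to 92.0 CPM of the CD3 complex. The 4 mast cell genes, of which 3 were tested and Cma1 had at most 1 count, summed to 52.5 and 14.7 CPM in WT and 27.2 and 15.1 CPM in Vil-CREPTKO, so that WT replicate 1 was highest as for the members. The 10 villus enterocyte genes summed to 15812 and 20785 CPM in WT and 28479 and 17236 CPM in Vil-CREPTKO, with WT replicate 1 lowest, and the 6 crypt genes to 5261, 4645, 4136 and 6333 CPM in the same order.

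The 11 B cell and plasma cell genes summed to 128 and 79.4 CPM in WT and 158 and 210 CPM in Vil-CREPTKO, with both Vil-CREPTKO libraries above both WT libraries. Igkc (antibody kappa chain), Jchain (which joins IgA molecules) and Igha (the IgA heavy chain) had log2 fold changes of 1.12, 0.95 and 0.77 with adjusted p-values of 0.0714, 0.0787 and 0.201. Ms4a1, which encodes the B cell surface protein CD20, had 9 to 54 counts. The 13 myeloid genes summed to 52.5 to 84.9 CPM, the 8 fibroblast and endothelial genes to 3.71 to 20.5 CPM, the 5 red blood cell genes to 12.4 to 66.4 CPM and the 4 smooth muscle genes to 0.570 to 0.752 CPM, with the first 3 highest in Vil-CREPTKO replicate 1. The 6 recirculating T cell genes, mostly Tcf7, summed to 8.98 to 11.5 CPM. The part of these cells in the member values was not tested.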

How the data were processed

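Whole-number read counts per gene were deposited by the authors for 2 WT and 2 Vil-CREPTKO crypt libraries, with 1 column per library. Per the methods of the study, reads were mapped to transcripts of GRCm38.p6 with Bowtie2 and quantified with RSEM. The submitters' processing notes also name CASAVA 1.8. Strand setting, annotation and any rounding of RSEM estimates are not given in the sources used here. The methods name BGISEQ sequencing, the labels Illumina library protocols.

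Identifiers were matched to GENCODE M21 (53360 of 53845). Counts were tested with edgeR 4.0.16 (filterByExpr, TMM scaling, quasi-likelihood test, two-sided, Benjamini-Hochberg adjustment over 17504 genes). CPM are TMM scaled, and RPKM divide them by summed exon length. Groups came from sample titles. The members and lists were chosen with earlier results of these data known. By rule, full values are given for members with an adjusted p below 0.05 and for the most abundant of each role; in other lists for genes past 0.05, up to 6 more by adjusted p, and Ccl25, Cdh1, Il15, Btnl1 and Btnl6. Other genes named were chosen after their values were seen. Scaling, filter, test, call rule, replicate block and libraries were varied. The test was tried on simulated counts. Promoter windows are from RefSeq.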

Additional observations from a re-analysis of the deposited data

How the results depend on the processing

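With 2 libraries per group, adjusted p-values rest on a spread shared across genes. Over 444 pairs of a member and an alternative, 28 changed sign and 4 had an adjusted p below 0.05, the lowest being 0.0405. The count of genes called lower (235) was 379 with library totals, 450 with no filter, 418 with the likelihood ratio test, 400 at any fold change and 225 to 308 when 1 library was left out. The count called higher (52) was 163 with no filter, 85 by DESeq2, 146 with the likelihood ratio test and 62 to 135 when 1 library was left out. With the replicate block, 269 genes were called lower and 67 higher, no member was called and the members' median was -0.26; the numbers do not pair the samples (r = 0.028 across genes between the groups' deviations), and it changed no call of a named gene but that of Igkc (adjusted p 0.0367).

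Members with an adjusted p below 0.05 numbered 1 lower with no filter (Lck, 0.0473), 1 higher with the likelihood ratio test, which was also called (Cd2), and 0 to 2 lower when 1 library was left out. The members' median ran from -0.57 to 0.0027 over these 4 fits. In the wider T cell list, 1 gene was lower with no filter, with 10 counts in every library, with DESeq2 and with the likelihood ratio test, and 0 to 1 when 1 library was left out; 1 (Klrc2) was higher with the likelihood ratio test. Of the partners, 1 to 2 were lower when 1 library was left out, and their median was -0.25 with library totals. In the other cell lists, 1 gene was lower with no filter and 0 to 1 without 1 library, and 2 were higher with library totals, 8 with no filter, 4 with DESeq2, 3 with the likelihood ratio test, 1 with the replicate block and 1 to 9 without 1 library. The log2 ratio of Cd8b1 to Cd8a between groups ran from -0.23 to 0.23.

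Signs changed only where a library was left out, over these log2 ranges: Cd3d -0.66 to 0.13, Cd247 -0.71 to 0.44, Trac -0.44 to 0.31, Trbc1 -0.40 to 0.093, Trbc2 -0.47 to 0.34, Cd160 -0.40 to 0.16, Cd244 -0.59 to 0.092, Cd96 -0.33 to 0.012, Klrd1 -0.63 to 0.30, Prf1 -0.46 to 0.22, Nkg7 -0.53 to 0.067, Ccl5 -0.59 to 0.11, Itgb7 -0.65 to 0.17, Ccr9 -0.51 to 0.48, Tbx21 -0.65 to 0.23, Ikzf3 -0.43 to 0.19, Tcrg-V7 -0.43 to 0.27, Cd4 -0.20 to 0.91, Cd69 -0.19 to 0.070, Klre1 -0.027 to 1.55, Xcl1 -1.19 to 0.15, Il15 -0.070 to 0.32 and Cdh1 -0.23 to 0.013. The cause was not tested. RLE and upper-quartile scaling moved none of these counts by more than 1.5 times.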
